A study of Mus musculus with 6 samples.

Results

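The genes described here encode the nuclear subunits of respiratory complexes III and IV, cytochrome c and the subunits of the ATP synthase. They were taken by name as every symbol in the count table that begins with Uqcr, Cox4 to Cox8 or Atp5, plus Cyc1 and Cycs. This gave 44 of the 18005 listed genes, of which 9 belong to complex III, 1 is cytochrome c, 17 belong to complex IV and 17 to the ATP synthase. Hearts of 3 old and 3 young mice were compared by RNA sequencing, with 1 library per numbered mouse. Per the labels, all 6 animals were WT (wild type) and received no treatment, and the tissue is given as heart, with no chamber named. The labels give neither the ages in months nor the strain or sex, so that "old" and "young" are known as labels only.

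Electrons from the oxidation of fuels enter the inner mitochondrial membrane through complexes I and II and pass by ubiquinone to complex III, the cytochrome bc1 complex. Cytochrome c carries them on to complex IV, cytochrome c oxidase, which reduces oxygen to water. Complexes I, III and IV pump protons, and the ATP synthase lets the protons return through a rotating ring and makes ATP. The heart beats without rest and relies on this pathway for nearly all of its ATP, and several complex IV subunits have a separate gene that is used mainly in heart and skeletal muscle.

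Most of these genes had somewhat higher transcript levels in old hearts, by amounts that were small for each gene. Library totals were 11295280 to 12514005 counts, and the 44 genes took 5.46%, 5.31% and 5.69% of all counts in the old libraries, against 4.98%, 5.25% and 4.73% in the young. The old libraries were all above the young, although old 2 and young 2 lay close together. Of the 44 genes, 43 passed the filter on low counts and were tested with edgeR on all 12893 genes that passed, and 11 were called higher in old hearts at a Benjamini-Hochberg adjusted p under 0.05. These 11 are 25.6% of the 43, while 11.4% of all tested genes were called higher. The subunit genes are highly expressed, and 41 of them are among the 1000 tested genes of highest mean FPKM. Of the other 959 genes of that class 23.7% were called higher and 4.8% lower, with a median log2 fold change of 0.135, so that the share called among the subunit genes was near that of other abundant transcripts. By edgeR 0 of the 43 were called lower, also at an unadjusted p under 0.05, by limma-voom and by DESeq2, against 10.6% of all tested genes in edgeR. At an unadjusted p under 0.05, 28 of the 43 were higher, while of all 12893 tested genes 2308 were higher and 2334 lower. The median log2 fold change of old over young was 0.243 for the 43 genes and -0.006 for all genes tested, and 41 of the 43 values were above 0. In TMM-scaled CPM (counts scaled to library size with the trimmed-mean factors of edgeR), 24 of the 43 lay higher in every old library than in any young library, against 19.6% of all tested genes, and 0 lay lower in every old library, against 20.3%. In either direction the groups did not overlap for 39.9% of all tested genes. Among all 2835 called genes 51.7% were on the higher side with TMM scaling, against 40.2% under upper-quartile scaling and 32.7% with library size alone, where 39 of the 43 values were above 0 and 9 genes were called higher. The summed FPKM of 10 cardiomyocyte markers was also higher in each old library, at 44352 to 45513 FPKM, against 37614 to 39485 FPKM in the young. Most of that difference was Actc1 alone, at 11526 FPKM in the mean of old hearts, against 5773 FPKM in young hearts. The median log2 fold change of the 10 markers was 0.075, and 4 of the 10 were below 0. In bulk tissue fewer or more cells of a type and less or more RNA per cell cannot be told apart, and the part of cell makeup in these results was not tested.

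**Figure D1:**
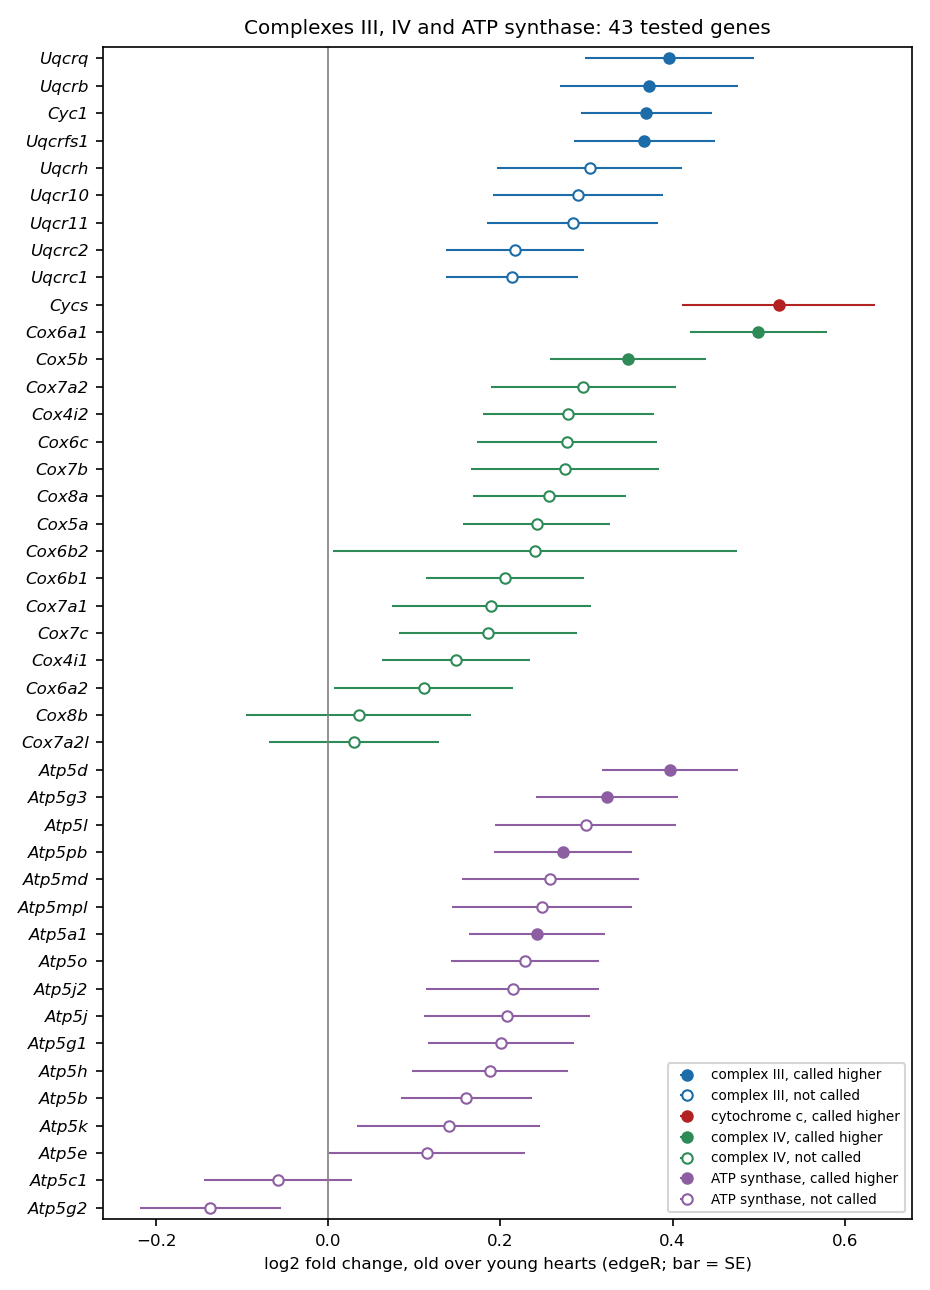
log2 fold change of old over young hearts for each of the 43 tested genes, with its standard error, ordered within each complex; filled points were called by edgeR. All but Atp5c1 and Atp5g2 lie to the right of 0, and the 11 called genes lie between 0.24 and 0.52.

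Libraries within a group were also spread, and young 3 stood apart by traces of skeletal muscle transcripts. The summed FPKM of 10 skeletal muscle markers was 5.48, 6.77 and 6.13 FPKM in old 1 to old 3, against 4.29, 4.45 and 37.5 FPKM in young 1 to young 3. Relative to the mean of the young libraries on the log2 CPM scale, the median over the 43 genes was 0.248 in old 1, 0.217 in old 2 and 0.308 in old 3, against -0.021 in young 1, 0.154 in young 2 and -0.129 in young 3. Library young 3 held the lowest value of 36 of the 43 genes, and old 3 held the highest value of 25. Without young 1 the number of genes called higher was 4, without young 3 it was 5, without old 1 it was 7, and without young 2 it was 26. The number was 11 without old 2 and 12 without old 3. The 5 genes called without young 3 were 3 of complex III and cytochrome c, 1 of complex IV and 1 of the ATP synthase. Short genes outside these complexes differed between the libraries in a like way, except that young 2 stood above old 2: over 562 other tested genes of at most 1000 bases the median was 0.179, 0.119 and 0.213 in old 1 to old 3, against -0.018, 0.144 and -0.118 in young 1 to young 3. Of the 43 genes 10 are of at most 500 bases and 18 of more than 500 and at most 1000. The part of gene length in these differences was not tested.

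**Figure D2:**
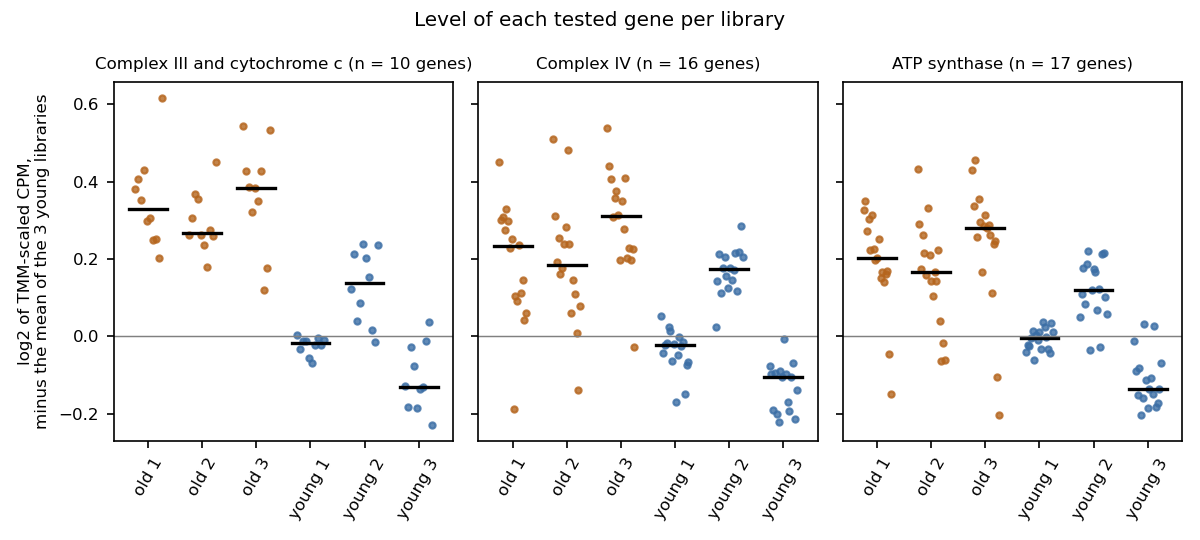
Each point is a gene in a library, as log2 TMM-scaled CPM minus the mean of the 3 young libraries, and each bar is the median over the genes of that complex. The medians of the old libraries lie above those of the young in each of the 3 panels, and young 2 lies above young 1 and young 3.

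In complex III 4 of the 9 genes rose, a share of 44.4%, against 11.4% of all tested genes and 23.7% of the other abundant genes. Its 9 fold changes ranged from 0.213 to 0.396 with a median of 0.304. All 9 were higher at an unadjusted p under 0.05, against 2308 of all 12893 tested genes. All 9 were also higher in each old than in each young library, against 19.6% of all tested genes. Cyc1, which encodes cytochrome c1 and so carries the haem that hands electrons to cytochrome c, had 1209, 1223 and 1238 CPM in the old libraries, against 939, 973 and 929 CPM in the young. The groups were well apart, and on the log2 scale the difference was 0.37 ± 0.08 (± SE; adjusted p = 0.0057 by edgeR with Benjamini-Hochberg adjustment, as throughout). Uqcrfs1, the Rieske iron-sulphur protein, which takes electrons from ubiquinol, had 1145, 1087 and 1062 CPM in the old libraries, against 843, 903 and 807 CPM in the young. The lowest old library was above the highest young one by more than the range within either group (0.37 ± 0.08, edgeR adjusted p = 0.0086).

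Of the small accessory subunits of complex III, Uqcrq and Uqcrb rose. Uqcrq had 1358, 1251 and 1519.7 CPM in the old libraries, against 1046, 1136 and 954 CPM in the young, with old 3 the highest and young 3 the lowest library (0.40 ± 0.10, edgeR adjusted p = 0.014). Uqcrb had 529, 493 and 537 CPM in the old libraries, against 390.1, 462 and 351 CPM in the young, and the gap between old 2 and young 2 was the narrowest between the groups (0.37 ± 0.10, edgeR adjusted p = 0.024). Of the 50-base stretches of Uqcrb transcripts 43.4% recur in other genes, against none for Cyc1, Uqcrfs1 and Uqcrq. The hinge protein gene Uqcrh, at 0.30 ± 0.11, and Uqcr10 and Uqcr11, at 0.29 ± 0.10 and 0.28 ± 0.10, did not pass (edgeR adjusted p between 0.054 and 0.063). Both core proteins, which form the matrix-facing bulk of the complex, had the smallest values: Uqcrc1 was at 0.21 ± 0.08 and Uqcrc2 at 0.22 ± 0.08 (edgeR adjusted p = 0.067 and 0.073). Uqcrc2 shares exon sequence with Pdzd9 on the opposite strand, and the strand setting of the counting is not given in the sources used here. Pdzd9 itself stood below 1 CPM in the mean of either group. The effect of the overlap on the count of Uqcrc2 was not tested.

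Cycs, the gene of somatic cytochrome c, had the largest fold change of the 43 tested genes. It had 597, 533 and 564 CPM in the old libraries, against 387, 459 and 332 CPM in the young. The lowest old library was above the highest young library, and within the young group Cycs was lowest in young 3. Old hearts had 1.44-fold the young level, or 0.52 ± 0.11 on the log2 scale (edgeR adjusted p = 0.0071), and this value ranged from 0.419 without young 3 to 0.649 without young 2. Of the 50-base stretches of its transcripts, 28.5% also occur in transcripts of other genes in GENCODE M21, mostly in the copy Gm10053, so that its count is less certain than that of a gene without copies. Hccs, the lyase that attaches haem to cytochrome c and cytochrome c1, rose too, at 60.5 ± 3.32 CPM in old hearts, against 40.7 ± 1.87 CPM in young hearts (SD, n = 3 each; 0.57 ± 0.08, edgeR adjusted p = 0.00059). Casp9, the caspase that cytochrome c activates through Apaf1 when it leaves mitochondria, fell, at 16.0 ± 3.24 CPM in old hearts, against 23.6 ± 1.08 CPM in young hearts (-0.56 ± 0.13, edgeR adjusted p = 0.011), a call lost without young 3. Apaf1 itself, at -0.08 ± 0.14, did not pass (edgeR adjusted p = 0.7).

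In complex IV 2 of the 16 tested genes rose, Cox6a1 and Cox5b, and the median log2 fold change was 0.241. The share called, 12.5%, is close to the 11.4% called higher among all tested genes and below the 23.7% of the other abundant genes. Higher at an unadjusted p under 0.05 were 9 of the 16, against 2308 of all 12893 tested genes. All 16 values were above 0, from 0.03 to 0.50. In 5 of the 16 each old library was above each young library, against 19.6% of all tested genes. Cox6a1, the form of subunit VIa used in most tissues, had 146, 153 and 156 CPM in the old libraries, against 111, 109 and 102 CPM in the young. It had the smallest p of the 43 genes and a gap between the groups far wider than the spread within either (0.50 ± 0.08, 1.41-fold, edgeR adjusted p = 0.0012). Cox5b, a zinc-binding subunit on the matrix side, had 1448, 1459 and 1596 CPM in the old libraries, against 1141, 1298 and 1098 CPM in the young, with old 3 the highest library (0.35 ± 0.09, edgeR adjusted p = 0.018). Shared 50-base stretches made up 12.3% in Cox6a1 and 21.8% in Cox5b.

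The 250 bases before the annotated starts of Cycs and Cox6a1, with the largest rises in the set, are shown beside those of the muscle isoform genes Cox7a1 and Cox8b, which did not pass the test. They were matched by RefSeq gene identifier, or else by symbol, to RefSeq promoters of GRCm38.p6, an older build than that of the files. Capitals mark matches on either strand to 7 motifs. These were GCANGCGC (the core bound by the factor NRF1), AAGGTCA (the core bound by ERR receptors) and CCGGAAG (ETS factors). The others were CTA and TAG 4 bases apart (MEF2), CAGCTG (an E-box), TATAAA and TGACGTCA (a cyclic AMP response element).
Cycs, chr6:50566570-50566819, minus strand: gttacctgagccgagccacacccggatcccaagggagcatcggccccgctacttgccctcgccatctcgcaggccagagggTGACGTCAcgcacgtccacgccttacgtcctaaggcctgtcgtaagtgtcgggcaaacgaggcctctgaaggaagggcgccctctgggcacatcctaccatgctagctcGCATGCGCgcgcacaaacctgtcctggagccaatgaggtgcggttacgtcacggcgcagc
Cox6a1, chr5:115348959-115349208, minus strand: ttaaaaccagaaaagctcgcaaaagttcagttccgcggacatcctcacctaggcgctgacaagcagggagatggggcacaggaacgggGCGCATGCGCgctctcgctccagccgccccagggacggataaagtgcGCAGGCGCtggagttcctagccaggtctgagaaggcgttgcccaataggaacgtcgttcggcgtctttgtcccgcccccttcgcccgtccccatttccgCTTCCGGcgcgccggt
Cox7a1, chr7:30183921-30184170, plus strand: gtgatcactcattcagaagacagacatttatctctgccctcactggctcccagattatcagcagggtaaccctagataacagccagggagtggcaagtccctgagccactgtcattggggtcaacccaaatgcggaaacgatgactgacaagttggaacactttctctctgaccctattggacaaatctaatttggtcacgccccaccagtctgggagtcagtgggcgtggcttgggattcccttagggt
Cox8b, chr7:140900447-140900696, minus strand: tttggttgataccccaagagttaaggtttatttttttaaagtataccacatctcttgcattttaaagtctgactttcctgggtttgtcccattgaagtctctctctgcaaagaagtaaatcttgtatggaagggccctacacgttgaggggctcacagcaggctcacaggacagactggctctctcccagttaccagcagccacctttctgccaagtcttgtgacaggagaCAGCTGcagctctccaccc
Cycs holds a match to the NRF1 core and to the cyclic AMP response element, and Cox6a1 holds matches to the NRF1 core, of which a pair overlap on opposite strands, and to the ETS motif. Cox8b holds the E-box letters, and none of the 7 motifs occurs in this window of Cox7a1. Promoters were found for 34 of the 44 genes. For 29 of these a stretch after the start was found near the start of a GENCODE M21 transcript of the gene. The 10266 promoters of tested genes were matched by symbol alone. The NRF1 core was in 26.5% of the 34, against 14.8% of 10266 promoters of tested genes and 7.86% of all 32851 promoters. The ETS motif was in 23.5%, against 13.6% and 6.91%. AAGGTCA was in 5.88%, against 2.63% and 4.08%, and the MEF2 motif in 2.94%, against 2.8% and 3.2%. CAGCTG was in 5.88%, against 12.2% and 13.0%, and TATAAA in 8.82%, against 6.80% and 12.4%. TGACGTCA was in 5.88%, against 2.49% and 1.55%, and the genes were Cycs and Uqcrfs1. Among the 7 called genes with a promoter, the NRF1 core was found in 2, Cycs and Cox6a1. The motifs were chosen with the values known, and a match of letters is no evidence of binding.

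The heart and muscle isoforms of complex IV were far more abundant than their counterparts in each library, and none of the 3 passed the test. Levels between genes are compared here on the FPKM scale (fragments scaled to library size and gene length). Cox6a2, the heart and skeletal muscle form of subunit VIa, had 5114, 4551 and 5368 FPKM in the old libraries, against 4459, 5555 and 4667 FPKM in the young, the highest level of the 44 genes in the old group. Cox6a1 had 265, 271 and 286 FPKM in the old libraries, against 215, 204 and 195 FPKM in the young. The groups overlapped for Cox6a2, which did not pass the test (0.11 ± 0.10 on the log2 scale, edgeR adjusted p = 0.47), and did not for Cox6a1. The share of Cox6a2 in the summed FPKM of both genes was 95.1%, 94.4% and 94.9% in the old libraries, against 95.4%, 96.5% and 96.0% in the young, so that it was lower in each old library, with a difference of -1.15 percentage points between the means (exact 2-sided permutation p = 0.1, the smallest that 3 against 3 allows; 0.2 after Benjamini-Hochberg adjustment over the 8 shares computed).

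Cox7a1, the muscle form of subunit VIIa, had 2217, 2122 and 2800.1 FPKM in the old libraries, against 2220.3, 2424 and 1958 FPKM in the young. Cox7a2, its counterpart in most tissues, had 688, 622 and 747 FPKM in the old libraries, against 586, 666 and 516 FPKM in the young. Neither passed, with log2 fold changes of 0.19 ± 0.12 for Cox7a1 and 0.30 ± 0.11 for Cox7a2 (edgeR adjusted p = 0.26 and 0.069), and young 2 lay within the old range for both. The Cox7a1 share was 76.3%, 77.3% and 78.9% in the old libraries, against 79.1%, 78.4% and 79.1% in the young, with overlap (exact 2-sided permutation p = 0.2). Cox7a2l, a related protein that links complexes III and IV into supercomplexes, had 311, 308 and 297 FPKM in the old libraries, against 304, 356 and 287 FPKM in the young and did not pass (0.03 ± 0.10, edgeR adjusted p = 0.85). Its direction was negative under upper-quartile scaling and library size alone.

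Cox8b, a muscle form of subunit VIII, had 3311, 2864 and 3809 FPKM in the old libraries, against 3268, 4056 and 2941 FPKM in the young. On the FPKM scale its highest library was young 2 and its lowest old 2, and its value of 0.04 ± 0.13 on the log2 CPM scale (edgeR adjusted p = 0.87) turned negative under upper-quartile scaling and library size alone. Cox8a, the general form, had 333, 329 and 358 FPKM in the old libraries, against 291, 328 and 283 FPKM in the young. In TMM-scaled CPM its groups did not overlap, and it missed the threshold (0.26 ± 0.09, edgeR adjusted p = 0.059). The Cox8b share was 90.9%, 89.7% and 91.4% in the old libraries, against 91.8%, 92.5% and 91.2% in the young, with overlap (exact 2-sided permutation p = 0.2). In each of these 3 pairs the mean share of the muscle isoform was lower in old hearts, with differences of -1.15, -1.38 and -1.20 percentage points, and the groups were apart for Cox6a2 only. Without young 3, the library with skeletal muscle transcripts, which also use these isoforms, the differences were -1.12, -1.26 and -1.52 percentage points.

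**Figure D3:**
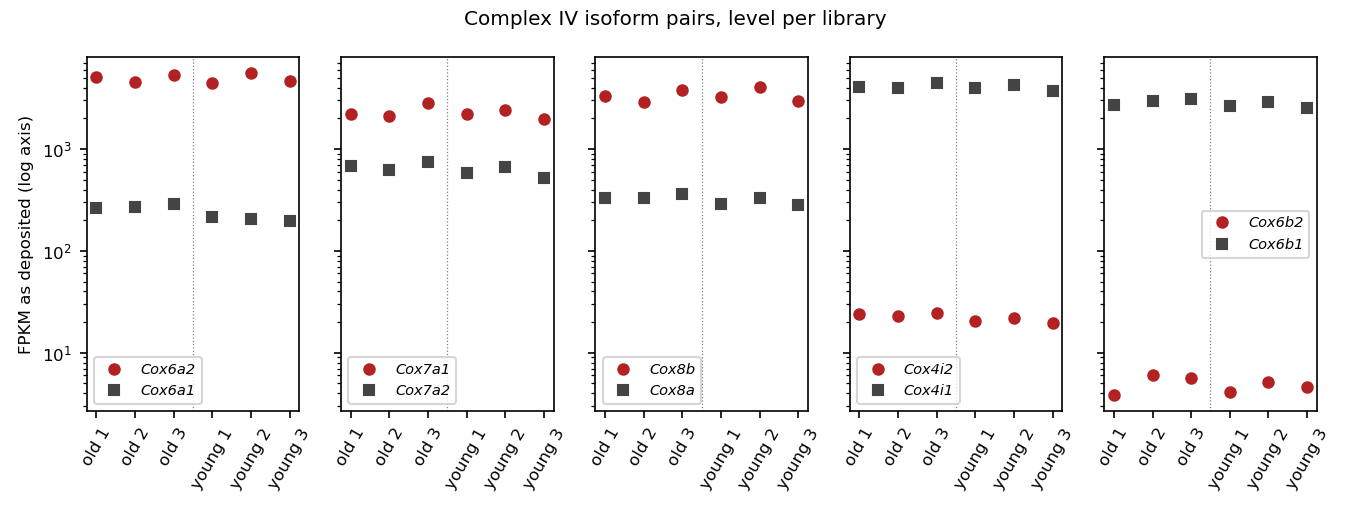
FPKM as deposited, on a log axis, in each library for 5 pairs of complex IV isoforms; circles are the isoforms restricted to few tissues and squares the general ones, with old libraries left of the dotted line. Cox6a2, Cox7a1 and Cox8b lie above their partners in all 6 libraries, and Cox4i2 and Cox6b2 lie far below theirs.

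For subunits IV and VIb the order was the opposite. Cox4i1, the general form of subunit IV, had 4066, 3974 and 4470.3 FPKM in the old libraries, against 3987, 4223 and 3710.0 FPKM in the young and did not pass (0.15 ± 0.09, edgeR adjusted p = 0.24). Cox4i2, a form known from lung and from pericytes, had 23.7, 22.9 and 24.6 FPKM in the old libraries, against 20.7, 21.9 and 19.5 FPKM in the young. Cox4i2 missed the threshold though each old library was above each young one (0.28 ± 0.10, edgeR adjusted p = 0.066). Its share of both genes was 0.580%, 0.573% and 0.547% in the old libraries, against 0.516%, 0.516% and 0.522% in the young (exact 2-sided permutation p = 0.1, the smallest possible; 0.2 adjusted over the 8 shares).

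The testis isoforms were low in both groups. Cox6b2 had 27, 44 and 40 counts in the old libraries, against 31, 35 and 35 in the young, and its log2 fold change of 0.24 ± 0.23 had the widest error of the set (edgeR adjusted p = 0.49). Cox6b1, the general form of subunit VIb, had 2730.1, 2937 and 3117 FPKM in the old libraries, against 2624, 2902 and 2516 FPKM in the young (0.21 ± 0.09, edgeR adjusted p = 0.13). Cox6b2 made up 0.141%, 0.203% and 0.181% in the old libraries, against 0.158%, 0.176% and 0.183% in the young of both (exact 2-sided permutation p = 0.9). Cox7b2 had 3, 3 and 3 counts in the old libraries, against 3, 2 and 0 in the young, and was the gene left out of the test. Its general counterpart Cox7b had 1329, 1197 and 1421 FPKM in the old libraries, against 1167, 1290.1 and 983 FPKM in the young and did not pass (0.28 ± 0.11, edgeR adjusted p = 0.092). On the FPKM scale both testis forms were thus far below their counterparts in each library of either group. Of the subunits without a tissue form, Cox5a was at 0.24 ± 0.09, Cox6c at 0.28 ± 0.10 and Cox7c at 0.19 ± 0.10, and they did not pass (edgeR adjusted p between 0.063 and 0.22). The FPKM of Cox5a was computed by the authors with a length of 3153 bases, against 645 for its longest coding transcript in GENCODE M21, so its level is not set beside those of the others.

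The ATP synthase had 4 called genes of 17, all higher, and a median log2 fold change of 0.214, with values from -0.137 to 0.397. The share called, 23.5%, stands beside 11.4% called higher among all tested genes and is near the 23.7% of the other abundant genes. Higher at an unadjusted p under 0.05 were 9 of the 17, against 2308 of all 12893 tested genes. In 9 of the 17 each old library was above each young library, against 19.6% of all tested genes. Among the 5 subunits of the catalytic F1 head and its central stalk, Atp5d and Atp5a1 rose. Atp5d, the delta subunit of the stalk, had 1119.9, 1205 and 1204 CPM in the old libraries, against 869, 924 and 886 CPM in the young (0.40 ± 0.08, edgeR adjusted p = 0.0046). The old and young libraries were well apart, with the smallest p in this complex.

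Atp5a1, the alpha subunit, had 5760.1, 6207 and 5527 CPM in the old libraries, against 4941, 4808 and 5035 CPM in the young. It passed by a small margin (0.24 ± 0.08, edgeR adjusted p = 0.047) and kept its call without old 3 but lost it without any other library. Atp5b, the catalytic beta subunit that pairs with alpha in the head, lay above every young library in each old library as well, but did not pass (0.16 ± 0.08, edgeR adjusted p = 0.15). The gamma subunit gene Atp5c1, whose product turns inside the head, was at -0.06 ± 0.09 and the epsilon subunit gene Atp5e at 0.12 ± 0.11, with overlapping groups (edgeR adjusted p = 0.66 and 0.5).

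Subunit c forms the rotating ring of the membrane part and is encoded by the genes Atp5g1, Atp5g2 and Atp5g3, which differ mainly in the targeting sequence that is removed on import. Of these only Atp5g3 passed. Atp5g3 had 2238, 2146 and 2217 CPM in the old libraries, against 1729, 1893 and 1650.3 CPM in the young (0.32 ± 0.08, edgeR adjusted p = 0.016). Atp5g1 had 1565, 1580.3 and 1720.0 CPM in the old libraries, against 1447, 1479 and 1308 CPM in the young (0.20 ± 0.09, edgeR adjusted p = 0.11). Atp5g2 had 371, 395 and 358 CPM in the old libraries, against 414, 428 and 392 CPM in the young, with only old 2 reaching the young range, and the lowest fold change of the 43 genes (-0.14 ± 0.08, edgeR adjusted p = 0.25). It was called lower after removal of the length trend (edgeR adjusted p = 0.015) and by limma on log2(FPKM + 1) with a filter (adjusted p = 0.049), with adjusted p from 0.015 to 0.46 over all alternatives.

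On the FPKM scale old hearts held more of Atp5g3 and less of Atp5g2 among the subunit c transcripts. The Atp5g3 share of their sum was 52.6%, 51.0% and 50.9% in the old libraries, against 46.8%, 48.4% and 47.8% in the young, and the Atp5g2 share was 12.7%, 13.6% and 11.9% in the old libraries, against 16.3%, 15.9% and 16.5% in the young. Neither overlapped between the groups: the difference of old minus young hearts was 3.83 percentage points for Atp5g3 and -3.50 for Atp5g2 (exact 2-sided permutation p = 0.1 for each, the smallest possible; 0.2 adjusted over the 8 shares). The Atp5g1 share was 34.7%, 35.4% and 37.2% in the old libraries, against 36.9%, 35.6% and 35.7% in the young, with overlap (exact 2-sided permutation p = 0.7). Of the 50-base stretches of Atp5g2 transcripts 38.3% recur in other genes, mainly Gm10175, against 11.1% for Atp5g1 and none for Atp5g3, so the split between copies is least certain for Atp5g2.

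**Figure D4:**
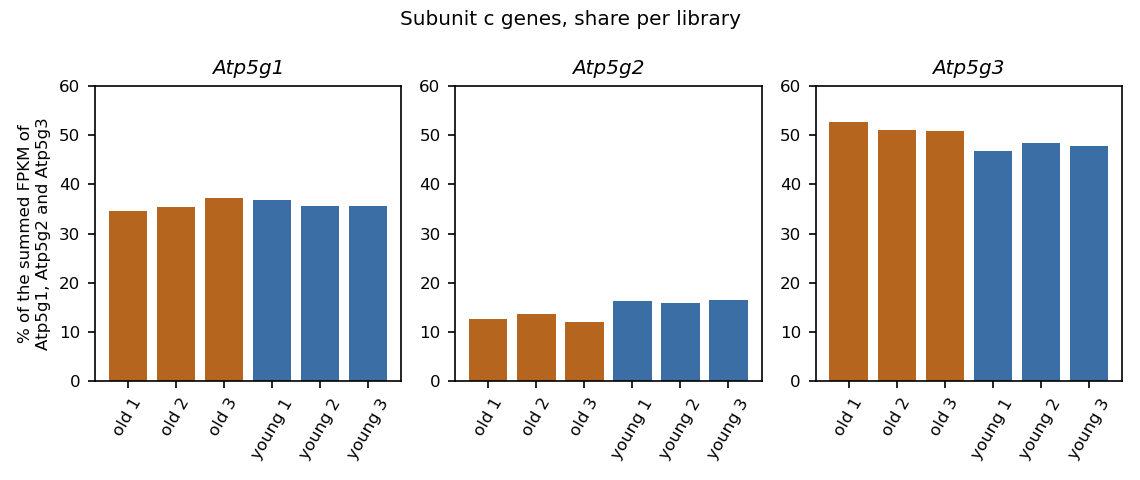
Share of each subunit c gene in the summed FPKM of Atp5g1, Atp5g2 and Atp5g3, in percent, in each library (bars start at 0). Atp5g3 is higher and Atp5g2 lower in each of the 3 old libraries than in each of the 3 young ones, and the Atp5g1 bars overlap.

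Among the 4 genes of the peripheral stalk, which holds the head still against the ring, Atp5pb (subunit b) rose. Atp5pb had 1480.0, 1438 and 1432 CPM in the old libraries, against 1195, 1272 and 1134 CPM in the young (0.27 ± 0.08, edgeR adjusted p = 0.031), a call lost without old 1, old 2, young 1 or young 3, and 37.6% of its 50-base stretches recur in other genes. Atp5o, which encodes the oligomycin sensitivity protein at the top of the stalk, was at 0.23 ± 0.09, Atp5h (subunit d) at 0.19 ± 0.09 and Atp5j (coupling factor 6) at 0.21 ± 0.10, none called (edgeR adjusted p between 0.077 and 0.16). The small membrane subunits, some of which tie 2 synthases into the dimers that bend the cristae, were likewise not called. Atp5l (subunit g) was at 0.30 ± 0.11, Atp5j2 (subunit f) at 0.21 ± 0.10, Atp5k (subunit e) at 0.14 ± 0.11, Atp5md at 0.26 ± 0.10 and Atp5mpl at 0.25 ± 0.10 (edgeR adjusted p between 0.062 and 0.37). For Atp5l 84.8% of 50-base stretches recur in other genes, the highest share of the set. Exons of Atp5a1 overlap those of Haus1, exons of Atp5d those of Cbarp, exons of Atp5j those of Gabpa, exons of Atp5pb those of Wdr77 and exons of Cox4i1 those of Emc8 on the opposite strand, and exons of Atp5o those of Donson on the same strand. The effect of these overlaps on the counts was not tested.

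Atpif1, the inhibitor that stops the ATP synthase from running backwards and hydrolysing ATP, went the other way. It had 154 ± 6.69 CPM in old hearts, against 196 ± 16.8 CPM in young hearts (SD, n = 3 each). Its difference on the log2 scale was -0.34 ± 0.09 (edgeR adjusted p = 0.016), and the groups did not overlap. This call was lost without young 1 and without young 2.

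The 11 calls were unequally firm. Cycs, Cyc1, Cox6a1 and Atp5d were called whichever library was left out. Cycs, Cyc1 and Atp5d were also called in all 13 other alternatives, as was Uqcrfs1, which lost its call without young 1 alone. Uqcrq and Cox5b lost theirs without young 1 or young 3, and Uqcrb and Atp5g3 without young 1, young 3 or old 1. With the replicate number as a block, 9 of the 11 were called. DESeq2 called all 11 and a further 11, with all 10 genes of complex III and cytochrome c among its 22.

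The shift over the set as a whole was smaller once the trend with gene length was removed, and cytochrome c and complex III kept most of the calls. The median log2 fold change of all tested genes was 0.172 in the class of more than 500 and at most 1000 bases, which holds 18 of the 43 genes, and -0.068 above 3000 bases. In that class 21.9% of all tested genes were called higher, and 4 of the 18 subunit genes. In the class of at most 500 bases the median of all tested genes was 0.115. There 4.62% of all tested genes were called higher, and 0 of the 10 subunit genes. In each class the median of the subunit genes was above that of all tested genes, at 0.198 in the shortest and 0.267 in the next. When a smooth trend on gene length was taken out of each library, the median of the 43 genes was 0.064, 30 of the 43 values were above 0 and 5 genes stayed called: Cycs (0.52), Atp5d (0.32), Uqcrq (0.28), Cyc1 (0.25) and Uqcrfs1 (0.23). By complex the median was 0.145 for complex III with cytochrome c, 0.027 for complex IV and 0.027 for the ATP synthase, against 0.336, 0.241 and 0.214 before. Cox6a1 was at 0.27 after the removal and missed the threshold (edgeR adjusted p = 0.053). Complex IV then had 0 called genes. The 5 genes still called have recorded lengths of 1313 to 3154 bases. The called genes of at most 1000 bases, Uqcrb, Cox5b, Cox6a1 and Atp5g3, all lost their calls, as did Atp5pb (1302 bases) and Atp5a1 (2432 bases). Whether the kept calls go with the complex or with length was not tested. What the trend with length comes from was not tested.

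**Figure D5:**
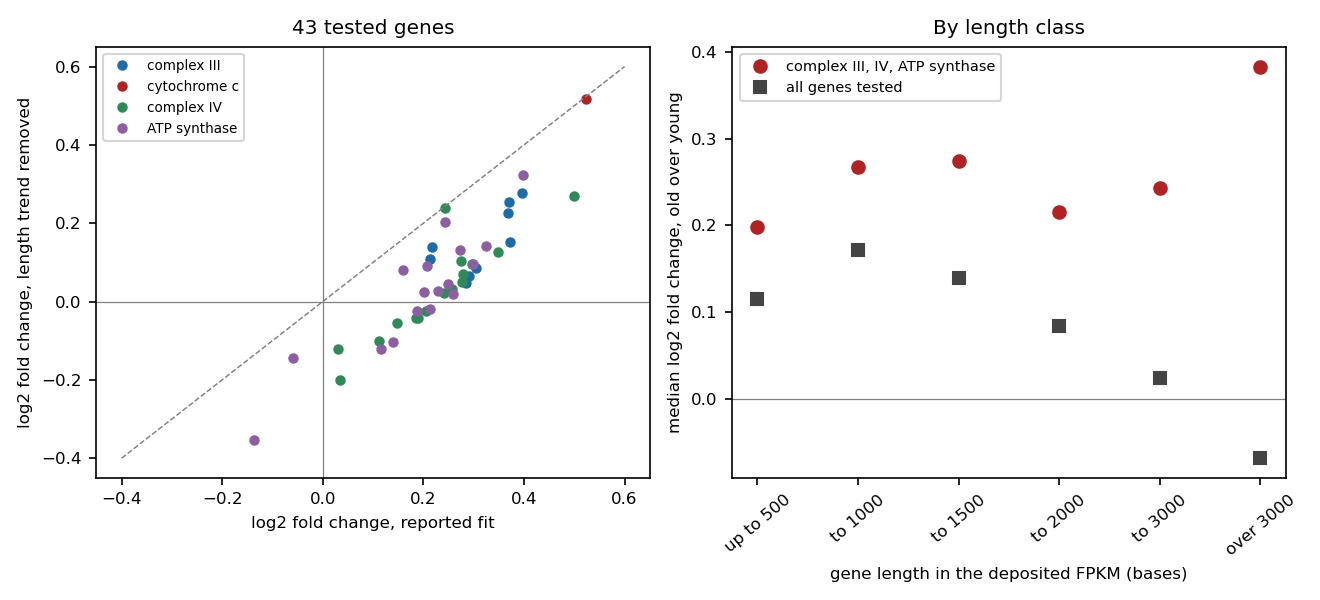
Left, log2 fold change of each of the 43 genes after removal of the length trend (vertical) against the reported value (horizontal), with the line of equality dashed; most points lie below the line, and Cycs lies on it. Right, median log2 fold change by class of gene length for these genes (circles) and for all genes tested (squares); the subunit genes number 10, 18, 4, 8, 1 and 2 from the shortest class to the longest, and the median of all genes is highest, at 0.172, in the class above 500 bases and lowest, at -0.068, above 3000 bases.

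Genes of the same pathway outside these complexes were set beside them from lists written from textbook knowledge. Of 37 nuclear complex I subunits 12 rose and 0 fell by edgeR, with a median log2 fold change of 0.232. The 12 are 32.4% of the list, against 11.4% of all tested genes and 23.7% of the other abundant genes. At an unadjusted p under 0.05, 24 were higher and 0 lower, against 2308 higher and 2334 lower of all 12893 tested genes. By limma-voom or DESeq2 0 were lower. The 4 of smallest p were Ndufs5 (0.44 ± 0.09), Ndufc2 (0.39 ± 0.09), Ndufs8 (0.36 ± 0.08) and Ndufa5 (0.39 ± 0.09), with edgeR adjusted p from 0.006 to 0.012. All 4 lost their calls with the length trend removed, and Ndufc2, Ndufs8 and Ndufa5 also without young 1 or young 3. The complex I count depended on the young libraries in the same way: it was 1 without young 1 or young 3, 23 without young 2, 6 without old 1 and 2 after removal of the length trend. Of the 4 complex II subunits, Sdhc, a membrane anchor, rose (0.34 ± 0.08, edgeR adjusted p = 0.012). This call was lost without young 1 or young 3 and with the length trend removed. Ndufa4, which is now counted among the complex IV subunits, was at 0.27 ± 0.11 and was not called (edgeR adjusted p = 0.088).

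Among assembly factors and regulators the counts were small, beside 11.4% called higher among all tested genes. Of 26 tested complex IV assembly factors and partners 2 rose, Higd1a, a hypoxia-inducible protein that binds the complex (0.54 ± 0.09, edgeR adjusted p = 0.0022), and Cmc2 (0.52 ± 0.10, edgeR adjusted p = 0.0032). Both were called whichever library was left out, and the count of the list called higher was then 2 to 6. With the length trend removed 2 of the list were called higher and 1 lower. Of 6 complex III assembly factors 0 were called by edgeR, limma-voom or DESeq2, and 0 to 2 were called with a library left out. Higher at an unadjusted edgeR p under 0.05 were 4 of the 6, against 2308 of all 12893 tested genes. Of 5 ATP synthase assembly factors Tmem242 rose (0.38 ± 0.10, edgeR adjusted p = 0.015), and the count was 0 to 2 with a library left out. The Tmem242 call was lost without old 1, young 1 or young 3 and with the length trend removed. Among 20 regulators of mitochondrial biogenesis the median log2 fold change was -0.037 and 1 was called, the coactivator gene Pprc1 (0.52 ± 0.10, edgeR adjusted p = 0.0037). With a library left out 1 to 3 were called higher and 0 to 1 lower. Ppargc1a, the coactivator best known for driving these genes, was at 0.07 ± 0.25, the receptor gene Esrra at 0.23 ± 0.10, Nrf1 at 0.09 ± 0.09, Gabpa at -0.08 ± 0.08 and Tfam at -0.002 ± 0.08, and these 5, singled out after their values were seen, did not pass (edgeR adjusted p between 0.11 and 0.99).

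Of 18 genes of cristae, carriers and channels of the mitochondrial membranes 7 rose, or 38.9%, against 11.4% of all tested genes and 23.7% of the other abundant genes. The number was 3 to 7 with a library left out and 4 after removal of the length trend. The list as a whole was not clearly raised, with a median log2 fold change of 0.12 and 4 of the 18 values below 0. Its summed FPKM was 7019 to 7465 in old libraries, against 7191 to 7752 in young. Letm1, an ion exchanger of the inner membrane, was at 0.68 ± 0.09 (edgeR adjusted p = 0.00025), and Slc25a5, an exchanger of ADP and ATP, at 0.55 ± 0.10 (edgeR adjusted p = 0.0021). Apool, a cristae junction protein gene, was at 0.42 ± 0.08 (edgeR adjusted p = 0.0036), and the prohibitin gene Phb at 0.31 ± 0.08 (edgeR adjusted p = 0.018). The Phb call was lost without young 1 or young 3 and with the length trend removed. By edgeR 0 of the 18 were lower, also at an unadjusted p under 0.05, by limma-voom and by DESeq2, but with library size alone 4 were called higher and 1 lower.

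The libraries held the transcripts that mark heart muscle, and markers of the cell types that share the muscle isoforms were low. Of the 10 cardiomyocyte markers, all detected, 4 were called, against 22% of all tested genes called in either direction. By edgeR Actc1 (1.08 ± 0.08), Tnni3 (0.35 ± 0.09) and Atp2a2 (0.32 ± 0.09) were higher and Mybpc3 (-0.59 ± 0.12) lower. The Tnni3 call was lost without old 1, young 1 or young 3, and the Atp2a2 call without old 1, old 2, young 1 or young 2. With the length trend removed the Tnni3 call was lost as well. Of 10 skeletal muscle markers, all detected, 3 passed the filter and 0 were called by edgeR, with 2 lower at an unadjusted p under 0.05. The highest level was that of young 3, as given above. Of 8 adipocyte markers Ucp1 had no count in any library and 1 passed the filter, Cidea, which was higher (0.43 ± 0.08), and the sum was 32.5 to 33.6 FPKM in old libraries, against 26.1 to 28.1 in young. Of the 8 testis germ cell markers none passed the filter, and Tnp1 and Sycp3 had no count in any library, with a sum of 0.365 to 0.576 FPKM in old libraries, against 0.116 to 0.153 in young.

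The counts of this paragraph stand beside 22% of all tested genes called in either direction, 11.4% higher and 10.6% lower. Pericyte and smooth muscle markers, relevant to Cox4i2, went both ways: of 12, 4 rose and 3 fell, or 58.3% called. Among the called were Acta2 at 0.77 ± 0.20, Higd1b at 0.51 ± 0.12, Pdgfrb at -0.69 ± 0.11 and Cspg4 at -0.66 ± 0.14. The Acta2 call was lost without young 2 or young 3 and with DESeq2, and the Higd1b call without old 1 or young 3. The summed FPKM of the 12 was 411 to 453 in old libraries, against 395 to 469 in young. Of 8 endothelial markers 7 had values below 0, with a median of -0.148, and by the test 1 rose, Esam (0.37 ± 0.08), and 1 fell, Kdr (-0.54 ± 0.17), with a sum of 570 to 690 FPKM in old libraries, against 652 to 750 in young. The Kdr call was kept without old 3 but lost without any other library and with DESeq2. Of 8 fibroblast markers 2 rose, Mfap5 (0.40 ± 0.11) and Lum (0.28 ± 0.09), and 1 fell, Tcf21 (-0.51 ± 0.13), with a sum of 677 to 852 FPKM in old libraries, against 697 to 738 in young. Mfap5 lost its call without old 1 or any young library and with library size alone, Lum without any library but old 2 and under upper-quartile scaling or library size alone, and Tcf21 without young 1 or young 2. Of 8 macrophage markers 3 rose, Cd68 (0.54 ± 0.10), C1qb (0.37 ± 0.09) and C1qa (0.36 ± 0.11), with a sum of 271 to 326 FPKM in old libraries, against 245 to 263 in young. The other markers of that list did not pass, and 4 of the 8 values were below 0, with a median of 0.019 over the list. In each old library 3 of the 8 were lower than in any young library, against 20.3% of all tested genes. The C1qa and C1qb calls were lost without old 1, young 1 or young 3, and that of C1qa also under upper-quartile scaling or library size alone. With the length trend removed the calls of Higd1b, Kdr, Mfap5, Lum, C1qa and C1qb were lost.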

How the data were processed

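Gene counts deposited by the authors are whole numbers, with 1 library per heart (3 old, 3 young). FPKM was computed by the authors from those counts, and gene lengths were recovered from the ratio of both tables. Per the submitters' processing notes, the tools were HISAT2, Trimmomatic, HTSeq, Bowtie2, StringTie, Cufflinks and DESeq and the genome GRCm39; which version and role each had, and whether counting used the strand, was not stated. A stranded mRNA kit is named, per the labels' protocols. All 12 files of single libraries equalled the joint tables.

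The main test was the quasi-likelihood F test of edgeR 4.0.16 (R 4.3.3), with filterByExpr, TMM and Benjamini-Hochberg adjustment over 12893 genes, on all 6 libraries without covariates; a gene is called at an adjusted p under 0.05. Library totals of 11295280 to 12514005 counts put 1 count at about 0.084 CPM. Alternatives, described at the end, used limma 3.58.1, DESeq2 1.42.0, other scalings, filters and thresholds, FPKM, removal of a loess length trend, a replicate block and each library left out. Isoform shares of FPKM were tested by exact permutation. Replicates differed beyond sampling noise (chi-square per degree of freedom 7.9 to 16.7 within groups). The titles number the mice, but nothing states how they were housed or sampled, so p-values measure the spread between these libraries.

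The genes, lists and motifs were chosen with earlier results of these data known. By the rule for named genes, values per library are given for each called gene and isoform pair, and from each other list up to 4 called genes of smallest p are named. Shared 50-base stretches and exon overlaps come from GENCODE M21, and promoters from RefSeq GRCm38.p6.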

Additional observations from a re-analysis of the deposited data

How the results depend on the processing

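Counts of calls depended on the young libraries and on the tool, and the cause was not tested. All genes called numbered 2835, 1552 to 3041 with a library left out (1557 without young 1 and 1552 without young 3) and 1255 at an adjusted p under 0.01. The 11 subunit genes called higher became 4 to 26 with a library left out, 22 with DESeq2, 7 with limma on log2(FPKM + 1) or log2(FPKM + 0.1), 5 without the FPKM filter, 5 with the length trend removed and 5 at an adjusted p under 0.01. The genes called lower, 0 by edgeR, became 1 with both filtered FPKM fits and 1 with the length trend removed, in each case Atp5g2.

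For complex III with cytochrome c, with 5 called, the counts were 2 to 8 with a library left out, 10 with DESeq2, 3 with unfiltered FPKM and 3 at an adjusted p under 0.01. For complex IV, with 2 called, they were 1 to 9 with a library left out, 6 with DESeq2, 1 with each of the 3 FPKM fits, 0 with the length trend removed and 1 at an adjusted p under 0.01. For the ATP synthase, with 4 called, they were 1 to 9 with a library left out, 2 with upper-quartile scaling, 2 with library size alone, 2 with both filtered FPKM fits, 1 with unfiltered FPKM, 1 with the length trend removed and 1 at an adjusted p under 0.01.

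The direction turned for 11 subunit genes, of which 0 were called in the reported fit or in the alternative. With the length trend removed the log2 fold changes were -0.121 for Atp5e, -0.024 for Atp5h, -0.020 for Atp5j2, -0.104 for Atp5k, -0.055 for Cox4i1, -0.101 for Cox6a2, -0.024 for Cox6b1, -0.043 for Cox7a1, -0.122 for Cox7a2l, -0.042 for Cox7c and -0.201 for Cox8b. Cox7a2l was also at -0.017 with upper-quartile scaling, -0.049 with library size alone, -0.043 in the 3 FPKM fits, -0.007 without young 1 and -0.035 without young 3 (up to 0.140 without young 2). Cox8b was at -0.011, -0.040 and -0.037 in the same scalings and FPKM fits, -0.052 without old 3, -0.009 without young 1 and -0.064 without young 3 (up to 0.191 without young 2). The Atp5g1 share differed by -1.05 to 0.206 percentage points with a library left out (0.206 without old 1, 0.0825 without young 1).

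With the replicate number as a block 9 of the 11 genes were called and, in the ATP synthase, 2 of 4; Atp5a1 and Atp5pb lost their calls. Libraries of the same number correlated at 0.078, 0.078 and 0.007 in their deviations from the group means, and libraries of different numbers at -0.141 to 0.064. Deviations from the mean of so few libraries depend on each other, so these values cannot decide whether the samples were paired.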
